A study of Homo sapiens with 16 samples.

Results

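The 10 protein-coding genes described here lie near each other on the distal long arm of human chromosome 3: CCDC50, OPA1, ATP13A3, TMEM44, LSG1, FAM43A, XXYLT1, ACAP2, PPP1R2 and MUC20, in map order from the centromere side to the chromosome end. They were chosen because each had lower RNA in every SAM68 knockout (KO) library than in every wild-type (WT) library of HCT116 cells. All 10 were found by their NCBI gene number among 27434 rows of the files, each in a row of its own. All 10 passed the filter on low counts in both cell lines. In HCT116 the WT libraries carried MUC20 past it, at 25 to 52 expected counts, against 3 to 11 in the KO libraries. Because the members were chosen by the knockout effect, that effect is a description below, with no test.

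The 16 poly(A) RNA libraries come from HCT116, a colorectal carcinoma line, and U2OS, an osteosarcoma line, in 8 groups of 2. HCT116 cells were SAM68 KO with NORAD siRNA, SAM68 KO with control siRNA, WT with NORAD siRNA, or WT with control siRNA. U2OS cells, all wild type, received an siRNA pool against SAM68, control siRNA, a plasmid carrying the mouse SAM68 gene, or control plasmid. siRNAs were used at 50 nM and plasmids at 100 ng per 20000 cells, and cells were harvested after 48 h. SAM68 (gene KHDRBS1) is an RNA-binding protein that regulates splicing, and NORAD is an abundant long noncoding RNA that binds Pumilio proteins. The series addresses whether NORAD needs SAM68 to act on Pumilio. The labels do not say whether the KO cells are 1 clone or several, how the knockout was made, or whether replicate libraries stem from independent cultures. The p-values below therefore cover just the variation among these samples, and that variation may be technical.

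Library totals were 11349545 to 27387412 expected counts. KHDRBS1 lay at 31.6 to 44.5 CPM (read counts relative to the scaled library size) in KO and 206 to 241 CPM in WT HCT116, and at 48.6 to 80.7 CPM under SAM68 siRNA against 245 to 249 CPM under control siRNA in U2OS. NORAD lay at 54.7 to 77.4 CPM under NORAD siRNA against 225 to 252 CPM under control siRNA in KO cells, and at 47.4 to 50.2 against 232 to 249 CPM in WT cells. Of 7 epithelial markers, 6 reached 1 TPM (a relative transcript abundance corrected for length) in KO and in WT HCT116, with VIL1 at 0 TPM in both, and 4 did so in U2OS, where KRT8 was at 325 to 502 TPM and KRT18 at 477 to 897 TPM. Of 9 mesenchymal and bone markers, 3 reached 1 TPM in KO and in WT HCT116 and 8 in U2OS, with COL1A2 at 0 to 0.46 TPM there. The summed epithelial level was 4430 to 5300 TPM in KO HCT116, 4110 to 4610 TPM in WT HCT116 and 925 to 1300 TPM in U2OS, and that of the mesenchymal list 6.71 to 8.07 TPM in KO HCT116, 9.54 to 11.5 TPM in WT HCT116 and 3000 to 5110 TPM in U2OS. Markers of blood, endothelial and liver cells summed to at most 0.59 TPM in any library.

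The genes share a position rather than a pathway. OPA1 is a dynamin-related GTPase that fuses inner mitochondrial membranes and shapes cristae, and its mutation causes dominant optic atrophy. LSG1 is a cytoplasmic GTPase that, as worked out in yeast, releases the export adaptor NMD3 from the large ribosomal subunit. ATP13A3 is an endosomal P-type transport ATPase linked to polyamine uptake, ACAP2 a GTPase-activating protein for ARF6, and XXYLT1 a xylosyltransferase that extends O-glucose glycans on the EGF repeats of Notch. PPP1R2 is an inhibitory subunit of protein phosphatase 1, CCDC50 a ubiquitin-binding protein of EGF receptor and NF-kB signalling, and MUC20 a membrane mucin that binds the MET receptor. TMEM44, a multi-pass membrane protein, and FAM43A have no well-defined role. For 8 members, the 250 bases before the transcript start were read from a RefSeq table. Its build, GRCh38.p14, is later than that of the files. CCDC50 and MUC20 are not listed in it. The promoters of TMEM44 and ACAP2 are shown because these genes had the largest and the smallest fall, on the log2 scale, among the 6 members whose listed promoter has at least 15 CpG dinucleotides. TMEM44 lies at chr3:194633420-194633669 and ACAP2 at chr3:195443021-195443270, both on the minus strand and written 5′ to 3′. Capitals mark the letters of a GC box (GGGCGG) or a CCAAT box (CCAAT) on either strand, and runs of capitals longer than 6 are overlapping matches.
TMEM44: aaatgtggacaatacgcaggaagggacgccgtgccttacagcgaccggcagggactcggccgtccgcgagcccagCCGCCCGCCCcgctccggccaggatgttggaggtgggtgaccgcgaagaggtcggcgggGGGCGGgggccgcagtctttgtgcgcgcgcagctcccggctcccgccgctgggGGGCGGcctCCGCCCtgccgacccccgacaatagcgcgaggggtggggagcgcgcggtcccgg
ACAP2: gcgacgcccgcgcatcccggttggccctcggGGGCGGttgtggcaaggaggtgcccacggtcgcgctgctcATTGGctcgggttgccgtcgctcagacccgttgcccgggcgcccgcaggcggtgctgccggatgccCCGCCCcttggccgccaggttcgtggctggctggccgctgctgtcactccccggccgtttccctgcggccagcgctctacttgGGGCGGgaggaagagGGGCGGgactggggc

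Both are rich in CpG, with 35 in TMEM44 and 29 in ACAP2, and hold 5 and 4 GC boxes. Over the 8 listed members, 6 had at least 15 CpG, a number that 42.9% of 35116 promoters of the same length reached. Those promoters were not limited to genes tested here. A GC box was present in 6 of 8, against 42.6% of all promoters, and a CCAAT box in 4 of 8, against 32%. Of the other motifs searched on both strands, the TATA box (TATAAA) and the E box (CACGTG) were in none of the 8 (10.7% and 6.34% of all promoters). The NRF1 site was in 1 (5.07%) and the ETS core (CGGAAG) in 2 (16.5%). These motifs did not occur together in every member: the start listed for ATP13A3 has 0 CpG and a GC content of 27.6%, against 75.2% for TMEM44 and 74.8% for ACAP2. A match is a description of letters and says nothing of binding.

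In HCT116 the RNA of these genes was lower in every KO library, to between 16.8% and 69.5% of the WT mean. Their median log2 fold change, KO over WT over both siRNAs, was -0.93, where the median of all 13764 tested genes was -0.01. Every KO library lay below every WT library for 8.71% of all tested genes, and for 10 of 10 members because the rule asked for it. The edgeR test called 6.62% of all tested genes lower, at an adjusted p below 0.05. In bulk RNA, fewer cells with a transcript and less of it per cell cannot be told apart.

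LSG1, OPA1 and ATP13A3 gave the most counts, and each kept more than 50% of its WT level. LSG1 had 69.0 and 71.9 CPM (NORAD siRNA) and 73.3 and 66.8 CPM (control siRNA) in KO cells, against 131 and 129 CPM (NORAD siRNA) and 121 and 130 CPM (control siRNA) in WT cells. The ribosome maturation gene left a wide gap between genotypes, with a KO mean of 70.3 ± 2.90 CPM against 128 ± 4.61 CPM in WT (SD, n = 4 each), or 54.9% of WT. OPA1 had 73.7 and 84.7 CPM (NORAD siRNA) and 61.5 and 75.0 CPM (control siRNA) in KO cells, against 114 and 128 CPM (NORAD siRNA) and 118 and 143 CPM (control siRNA) in WT cells. In KO cells the mitochondrial fusion gene stood at 58.7% of WT. ATP13A3, the polyamine-linked ATPase, had 167 and 190 CPM (NORAD siRNA) and 126 and 174 CPM (control siRNA) in KO cells, against 209 and 237 CPM (NORAD siRNA) and 225 and 276 CPM (control siRNA) in WT cells. It lay just inside the rule: its lowest WT library was 1.09 times its highest KO library, the narrowest margin of the 10, and its KO mean was 69.5% of WT.

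ACAP2 had 35.2 and 39.5 CPM (NORAD siRNA) and 27.5 and 37.7 CPM (control siRNA) in KO cells, against 50.2 and 58.0 CPM (NORAD siRNA) and 49.7 and 65.8 CPM (control siRNA) in WT cells. This ARF6 regulator was at 62.5% of WT. PPP1R2 had 31.3 and 22.6 CPM (NORAD siRNA) and 20.9 and 22.9 CPM (control siRNA) in KO cells, against 39.1 and 40.1 CPM (NORAD siRNA) and 39.0 and 41.7 CPM (control siRNA) in WT cells. The phosphatase inhibitor was at 61.2% of WT, and 1 KO library, NORAD siRNA replicate 1, stood above the other KO libraries; reads of its processed pseudogenes may be counted with it. CCDC50 had 30.3 and 25.7 CPM (NORAD siRNA) and 24.3 and 28.3 CPM (control siRNA) in KO cells, against 53.3 and 52.6 CPM (NORAD siRNA) and 55.0 and 56.1 CPM (control siRNA) in WT cells. Its KO mean of 27.1 ± 2.68 CPM was 50% of the WT mean of 54.3 ± 1.56 CPM (SD, n = 4 each), with a wide gap between genotypes.

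The 4 members with the fewest counts fell further. XXYLT1, the Notch xylosyltransferase, had 6.55 and 7.44 CPM (NORAD siRNA) and 7.08 and 6.52 CPM (control siRNA) in KO cells, against 16.5 and 16.6 CPM (NORAD siRNA) and 17.7 and 16.9 CPM (control siRNA) in WT cells. The libraries of each genotype were close together, and KO stood at 40.8% of WT. TMEM44 had 3.00 and 2.99 CPM (NORAD siRNA) and 4.04 and 4.95 CPM (control siRNA) in KO cells, against 12.2 and 11.5 CPM (NORAD siRNA) and 10.4 and 10.3 CPM (control siRNA) in WT cells, so that KO was at 33.7% of WT. FAM43A had 2.33 and 1.93 CPM (NORAD siRNA) and 2.46 and 1.86 CPM (control siRNA) in KO cells, against 5.95 and 6.02 CPM (NORAD siRNA) and 7.5 and 3.76 CPM (control siRNA) in WT cells. Its 2 WT control siRNA libraries differed from each other more than any KO libraries did, and KO was at 37% of WT. MUC20 had 0.167 and 0.255 CPM (NORAD siRNA) and 0.379 and 0.539 CPM (control siRNA) in KO cells, against 1.88 and 2.16 CPM (NORAD siRNA) and 2.42 and 1.52 CPM (control siRNA) in WT cells. This mucin rested on 27 counts summed over the 4 KO libraries and 167 over the 4 WT libraries, so its 16.8% of WT is the least precise of the set, and a mucin with repeated sequence and related copies nearby is counted with uncertainty.

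**Figure D1:**
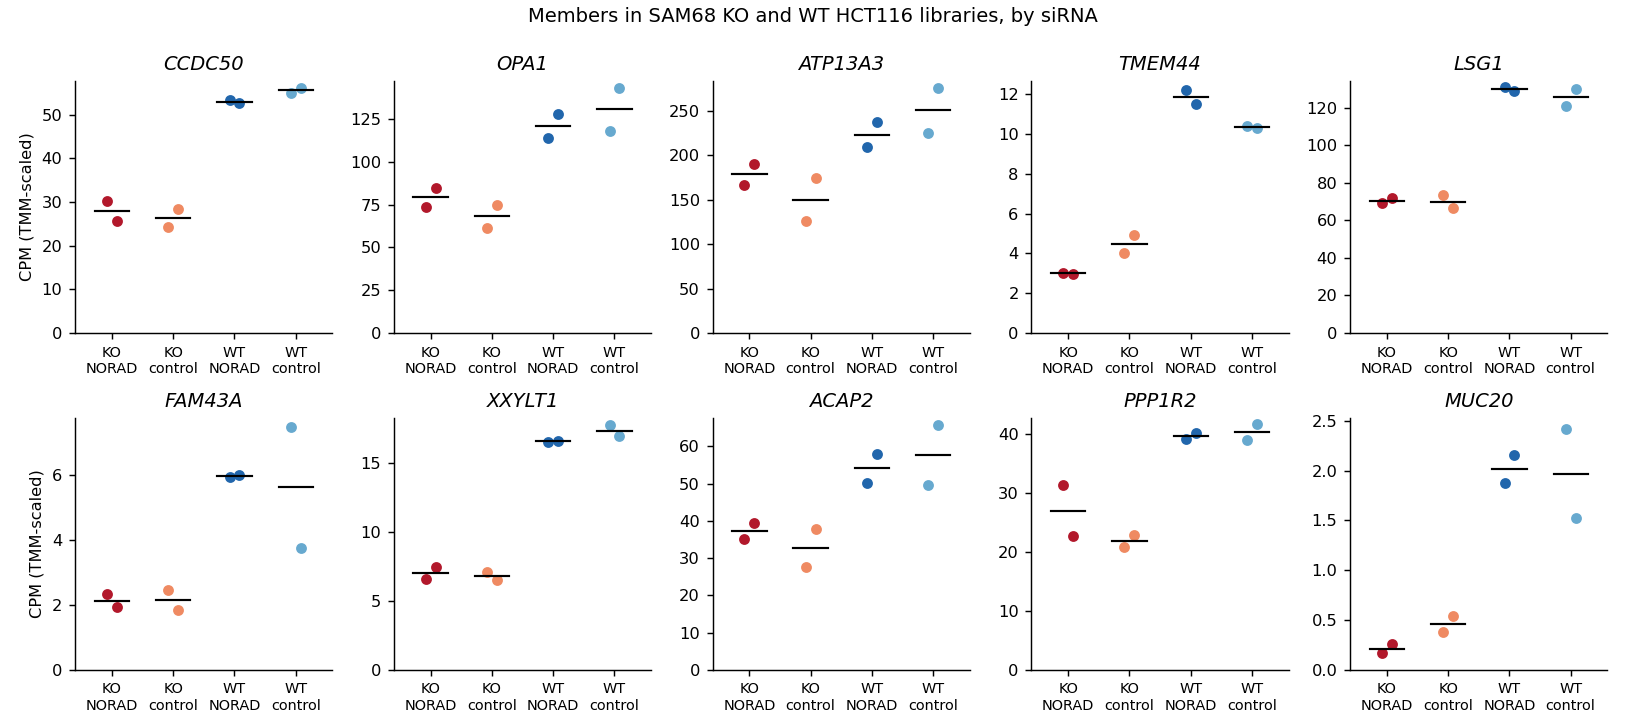
Level of each member (CPM, vertical axes start at 0) in the KO and WT HCT116 libraries under NORAD and control siRNA; dots are libraries and bars the means of 2. In each panel all 4 KO libraries lie below all 4 WT libraries, with the narrowest gap for ATP13A3 and the lowest levels for MUC20.

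On the log2 scale the KO over WT values were -0.53 ± 0.12 (SE) for ATP13A3, -0.68 ± 0.13 for ACAP2, -0.72 ± 0.11 for PPP1R2, -0.77 ± 0.10 for OPA1, -0.86 ± 0.07 for LSG1 and -1.0 ± 0.09 for CCDC50. They were -1.29 ± 0.10 for XXYLT1, -1.45 ± 0.23 for FAM43A, -1.59 ± 0.12 for TMEM44 and -2.62 ± 0.30 for MUC20. The first 6 lie between 69.5% and 50% of the WT level, and the other 4, all at 17.7 CPM or lower in WT cells, between 40.8% and 16.8%. The median of the 10 was -0.90 under NORAD siRNA alone and -1.0 under control siRNA alone. KO over WT was lower under NORAD siRNA for MUC20 (-3.17, against -2.08 under control siRNA) and TMEM44 (-1.99 against -1.19). It was nearer 0 for ATP13A3 (-0.32 against -0.73), OPA1 (-0.61 against -0.93), PPP1R2 (-0.56 against -0.88) and ACAP2 (-0.53 against -0.82). The other members shifted less. MUC20 rests here on 3 and 7 expected counts under NORAD siRNA in KO cells. These shifts are the difference of the NORAD siRNA effect given below, where edgeR called 0 of 10 members. Over the 8 HCT116 libraries, pairs of members had a median Pearson r of 0.896 and a lowest r of 0.606, values that the shared KO and WT step of the rule sets.

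Levels between genes were compared per length, in TPM. In WT HCT116 LSG1 (62.0 ± 3.65 TPM, SD, n = 4) and ATP13A3 (54.6 ± 8.39 TPM) were the highest members, and their libraries overlapped. OPA1 (33.3 ± 4.5 TPM) and PPP1R2 (20 ± 1.34 TPM) followed, each clear of its neighbours in the order. ACAP2 (13.2 ± 2.24 TPM), XXYLT1 (12.2 ± 0.873 TPM) and CCDC50 (10.6 ± 0.519 TPM) overlapped from one to the next. TMEM44 (8.40 ± 0.584 TPM), FAM43A (3.20 ± 0.774 TPM) and MUC20 (1.59 ± 0.299 TPM) closed the order without overlap. In KO cells ATP13A3 (37.4 ± 7.84 TPM) stood above LSG1 (33.5 ± 2.80 TPM), by less than their spread, and MUC20 was again the lowest at 0.285 ± 0.164 TPM. Across the 10 members, the higher the WT TPM the smaller the log2 fall in KO (Spearman rho 0.806 over 10 genes, a description in which the WT level enters both measures).

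The fall did not stop at the members. All 16 tested genes from CCDC50 to SDHAP1 in map order were lower in KO cells, with a median log2 of -0.91, and 13 of them had every KO library below every WT library. The 10 members, chosen as low, are among the 16 and among the 13. The end at SDHAP1 was placed at the last negative gene before TFRC, so these counts are no test. Of the 3 tested non-members between CCDC50 and MUC20, TMEM44-AS1, an antisense RNA of TMEM44, was at 0.407 ± 0.168 CPM in KO and 0.844 ± 0.153 CPM in WT cells (SD, n = 4 each) and would have met the criterion of the rule. MB21D2 (6.84 ± 0.996 CPM in KO, 8.25 ± 1.14 CPM in WT) and HES1, a transcriptional repressor downstream of Notch (12.2 ± 1.11 CPM in KO, 15.2 ± 1.61 CPM in WT), lay just outside it, with log2 values of -0.26 and -0.32 and libraries that overlapped. The library kit keeps the strand, but whether the counting used it is not given in the sources used here, so reads of TMEM44 and TMEM44-AS1 may not be told apart.

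On the side of the chromosome end, the run continued past MUC20. MUC4, another mucin, was at 0.633 ± 0.184 CPM in KO and 0.801 ± 0.263 CPM in WT cells, with overlap. TNK2, a non-receptor tyrosine kinase, was at 8.05 to 13.6 CPM in KO and 20.1 to 30.8 CPM in WT libraries, or 36% of WT (log2 -1.49 ± 0.16). SDHAP1, a pseudogene of SDHA whose reads are uncertain because of its copies, was at 5.00 to 8.40 CPM in KO and 11.3 to 12.9 CPM in WT libraries (log2 -0.95 ± 0.15). Both met the criterion that chose the members without being among them. The next tested gene, TFRC, the transferrin receptor, was at 485 to 787 CPM in KO and 389 to 674 CPM in WT libraries (log2 0.28 ± 0.10); it was named after its values were seen. From TFRC to the end of the chromosome 26 genes were tested, of which 11 were negative and 15 positive, with a median log2 of 0.03, and 2 had every KO library below every WT library.

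On the centromere side the edge was less sharp. IL1RAP (-0.25 ± 0.23), P3H2 (-0.27 ± 0.30) and LPP (-0.43 ± 0.10), the 3 tested genes before CCDC50, had negative log2 values. LPP, a focal adhesion protein, was at 30.0 to 37.3 CPM in KO and 40.4 to 51.2 CPM in WT libraries, without overlap, and so met the criterion too. Over the 10 tested genes before CCDC50 the median was -0.23, with 6 negative and 4 positive, and 3 had every KO library below every WT library. Over the 687 tested genes of chromosome 3 before those the median was 0.06.

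**Figure D2:**
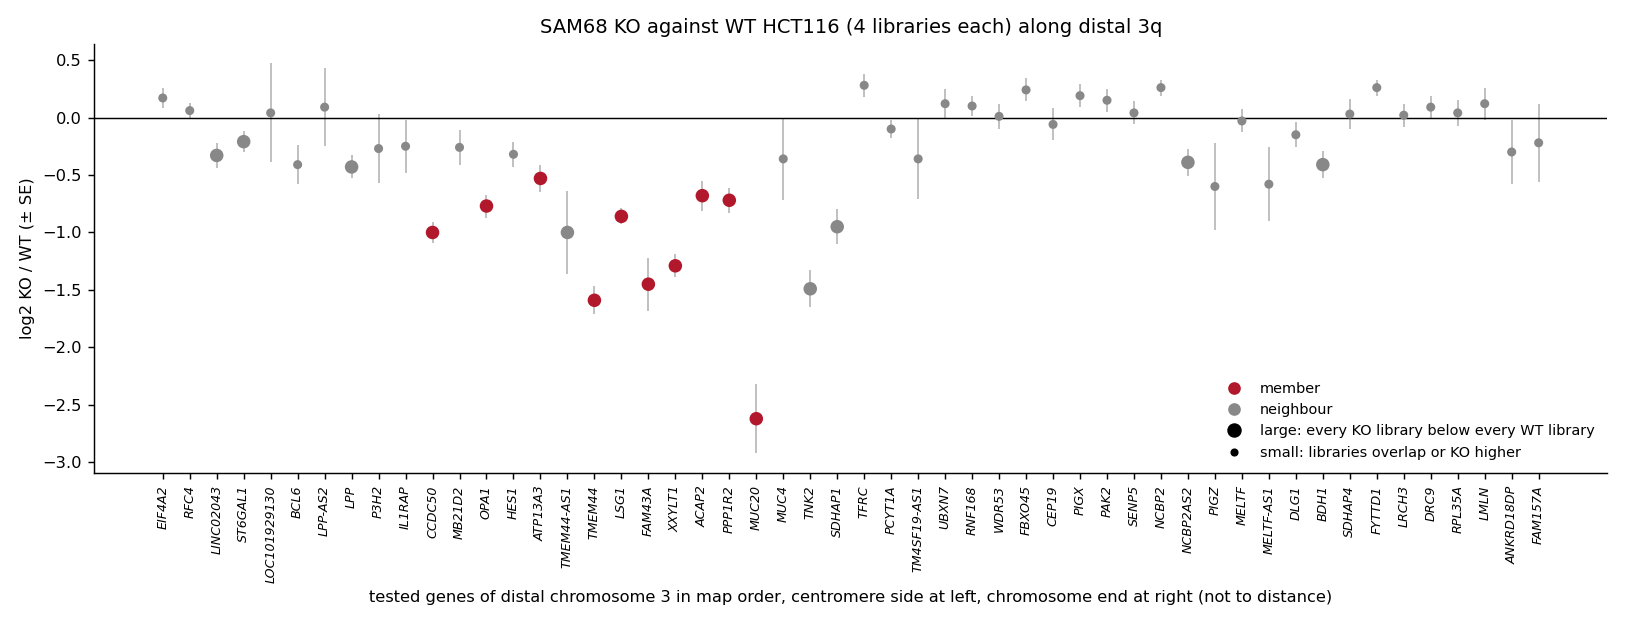
Log2 KO over WT in HCT116 (vertical axis, ± SE, 4 libraries a genotype) for the tested genes of distal chromosome 3 in map order, members in red and neighbours in grey; large dots mark genes with every KO library below every WT library. The values run low from CCDC50 to SDHAP1 and return to about 0 at TFRC.

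Seen over whole chromosomes, a running median over 11 consecutive tested genes was lowest at XXYLT1 and ACAP2, tied at -1.0. Of 12938 such windows, the 12 lowest were all centred between CCDC50 and SDHAP1. The lowest window off chromosome 3 was on chromosome 12, centred on CLEC12A-AS1, at -0.55, and the median window was at 0.01. With windows of 7 genes the lowest was -1.29, tied at XXYLT1 and PPP1R2, and with windows of 21 genes -0.72, tied at 6 positions from TMEM44-AS1 to ACAP2, against -0.79 and -0.42 for the lowest window elsewhere, both on chromosome 19. The members were picked from this stretch, so its rank is no test. DNA copy number was not analysed here.

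**Figure D3:**
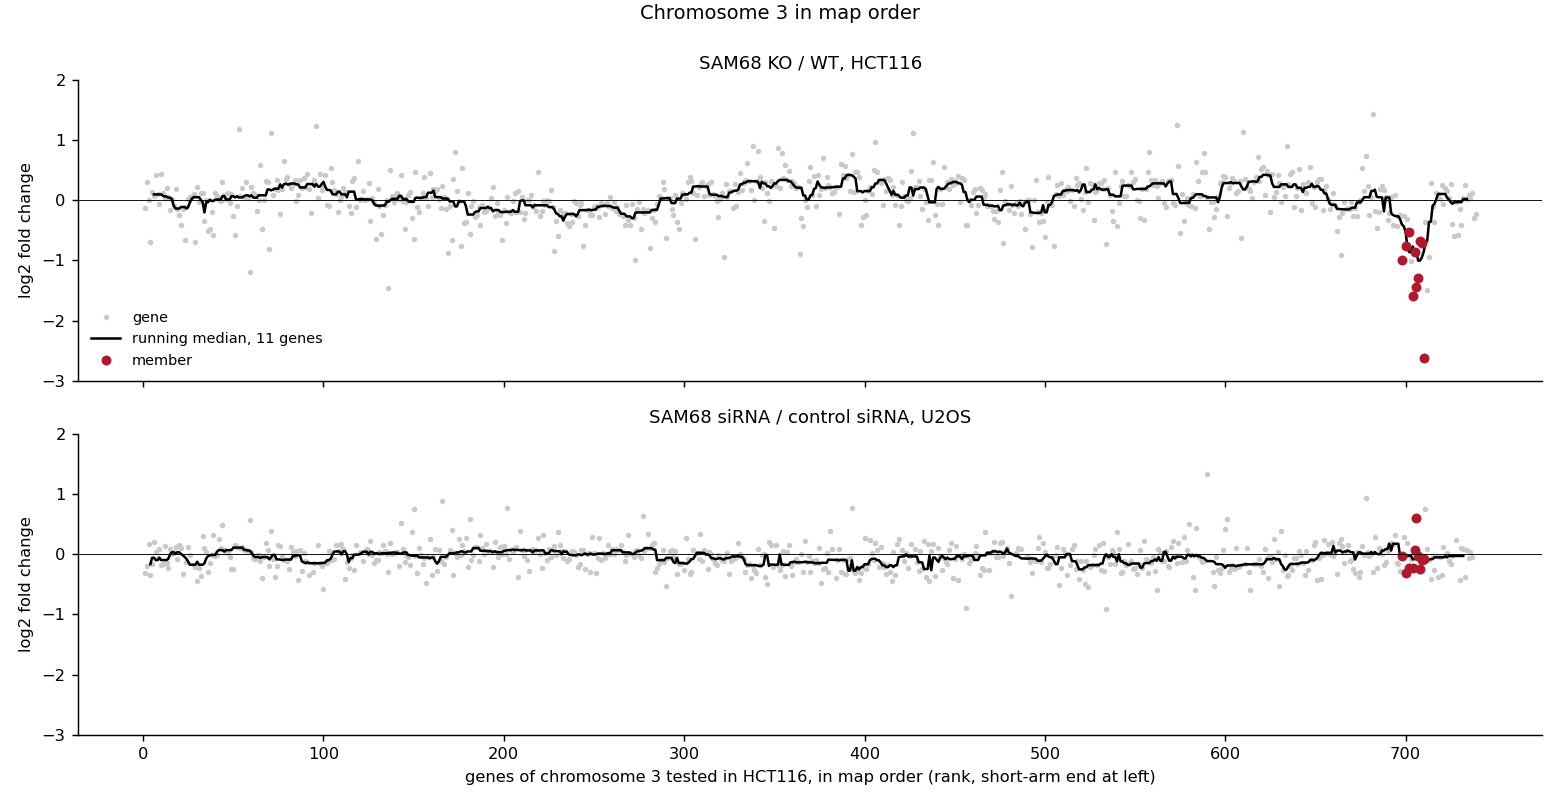
Log2 fold change of the genes of chromosome 3 in map order, for SAM68 KO over WT in HCT116 (top) and SAM68 siRNA over control siRNA in U2OS (bottom); grey dots are genes, red dots the 10 members, and the black line is the median of 11 consecutive genes. In HCT116 the line dips to -1.0 near the distal end, and in U2OS the members lie around 0, between -0.32 and 0.61.

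In U2OS, where SAM68 was lowered by siRNA, the edgeR test called none of the 10 genes, and 0.00639% of 15658 tested genes in all (1 gene). At an unadjusted p below 0.05 there were 0 members and 166 genes, and DESeq2 called 0 members and 7 genes. Their median log2 was -0.09, against -0.01 for all genes, with 2 positive and 8 negative. LSG1 had 102 and 106 CPM under SAM68 siRNA against 102 and 97.1 CPM under control siRNA, a log2 fold change of 0.07 ± 0.16 (SE; -0.25 to 0.39 at 2 SE). CCDC50 had 107 and 94.9 CPM against 106 and 100 CPM (log2 -0.03 ± 0.16, or -0.36 to 0.29 at 2 SE), and the libraries of the ubiquitin-binding gene overlapped between treatments. FAM43A had 2.37 and 2.30 CPM under SAM68 siRNA against 1.23 and 1.81 CPM under control siRNA (log2 0.61 ± 0.34), without overlap, with an edgeR adjusted p of 1.

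OPA1, ATP13A3 and ACAP2 varied most between the SAM68 siRNA libraries. OPA1 had 156 and 69.4 CPM under SAM68 siRNA against 155 and 125 CPM under control siRNA (log2 -0.32 ± 0.34, or -0.99 to 0.36 at 2 SE). ATP13A3 had 243 and 109 CPM against 234 and 179 CPM (log2 -0.23 ± 0.39, or -1.0 to 0.55 at 2 SE). ACAP2 had 70.8 and 37.0 CPM against 67.2 and 60.4 CPM (log2 -0.25 ± 0.29, or -0.82 to 0.33 at 2 SE). These intervals include the KO over WT values of the 3 genes in HCT116 (-0.77, -0.53 and -0.68, in that order). Those of the other members do not. In all 3 it was SAM68 siRNA replicate 2 that lay low, while replicate 1 stood above both control libraries. Without SAM68 siRNA replicate 2 the median log2 of the 10 genes was 0.06. That replicate had the lower KHDRBS1, at 48.6 CPM against 80.7 CPM in replicate 1. TMEM44 (4.90 and 8.94 CPM) and XXYLT1 (4.65 and 7.74 CPM) lay lower in replicate 1 instead. Whether the depth of the knockdown bears on these values was not tested. The difference between the siRNA response of U2OS and the KO line of HCT116 was not tested.

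With the SAM68 plasmid in U2OS the median log2 of the members was -0.07, against 0.01 for all genes, with 3 positive and 7 negative. The members ran from -0.37 (MUC20, 0.815 and 0.801 CPM with the SAM68 plasmid against 1.13 and 0.966 CPM with control plasmid) to 0.26 (FAM43A, 2.44 and 1.81 against 1.77 and 1.75 CPM). EdgeR called 0 of 10, with each adjusted p at 1 and 0 members at an unadjusted p below 0.05, and DESeq2 called 0. The edgeR test called 0.00639% of all tested genes, with 86 at an unadjusted p below 0.05.

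Between the lines, under control siRNA, 3 members were higher in both U2OS than in both WT HCT116 libraries: CCDC50 (24.2 ± 1.29 TPM in U2OS, 10.9 ± 0.608 TPM in HCT116; SD, n = 2 each), PPP1R2 (30.5 ± 2.95 TPM in U2OS, 20.4 ± 1.97 TPM in HCT116) and ACAP2 (17.6 ± 1.51 TPM in U2OS, 13.8 ± 3.34 TPM in HCT116). XXYLT1 (5.68 ± 0.587 TPM in U2OS, 12.7 ± 0.509 TPM in HCT116) and FAM43A (0.985 ± 0.262 TPM in U2OS, 3.12 ± 1.32 TPM in HCT116) were lower in U2OS. The other 5 overlapped between the lines, among them LSG1 at 56.5 ± 2.33 TPM in U2OS and 61.6 ± 6.17 TPM in HCT116. The gap for ACAP2 was narrow, with its lower U2OS library at 16.6 TPM and its higher HCT116 library at 16.1 TPM. Under control plasmid, ACAP2 in U2OS was at 10.8 and 8.84 TPM. The share of all genes that the 2 against 2 libraries separate was not computed, so these counts only describe the members. U2OS and HCT116 were not tested against each other.

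NORAD siRNA moved no member past the test in either genotype. The rule did not use this contrast, but it did use the same libraries, asking every KO library to lie below every WT library. Genes with a wide spread within a genotype, a NORAD siRNA response included, were thus less likely to be chosen. In KO cells the median log2 was 0.07, with 7 positive and 3 negative, and in WT cells -0.04, with 4 positive and 6 negative. EdgeR called 0.00727% of 13764 tested genes in each of these comparisons (1 gene) and 0 of 10 members; DESeq2 called 0 members in both, and 8 genes in KO and 5 in WT cells. At an unadjusted p below 0.05 there were 1 member, TMEM44, and 1558 genes in KO cells, and 0 members and 181 genes in WT cells. TMEM44 had 3.00 and 2.99 CPM under NORAD siRNA against 4.04 and 4.95 CPM under control siRNA in KO cells, a log2 of -0.59 ± 0.18 with an edgeR adjusted p of 0.428. In WT cells it had 12.2 and 11.5 CPM against 10.4 and 10.3 CPM (log2 0.20 ± 0.15, edgeR adjusted p = 0.999).

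The difference of the NORAD siRNA effect, KO minus WT, was -0.79 ± 0.24 for TMEM44 (edgeR adjusted p = 0.642) and ran from -1.09 ± 0.63 (MUC20) to 0.41 ± 0.23 (ATP13A3) over the others. Over all 10 members, TMEM44 included, the median was 0.13, with 6 positive and 4 negative. EdgeR called 0 of 10 members and 0% of all tested genes, with 1 member and 1048 genes at an unadjusted p below 0.05, and DESeq2 called 0 members and 2 genes. The interval of 2 SE was narrowest for LSG1, from -0.32 to 0.24, and much wider for FAM43A, from -1.0 to 0.83, and for MUC20, from -2.4 to 0.18. MUC20 had only 3 and 7 expected counts under NORAD siRNA in KO cells.

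**Figure D4:**
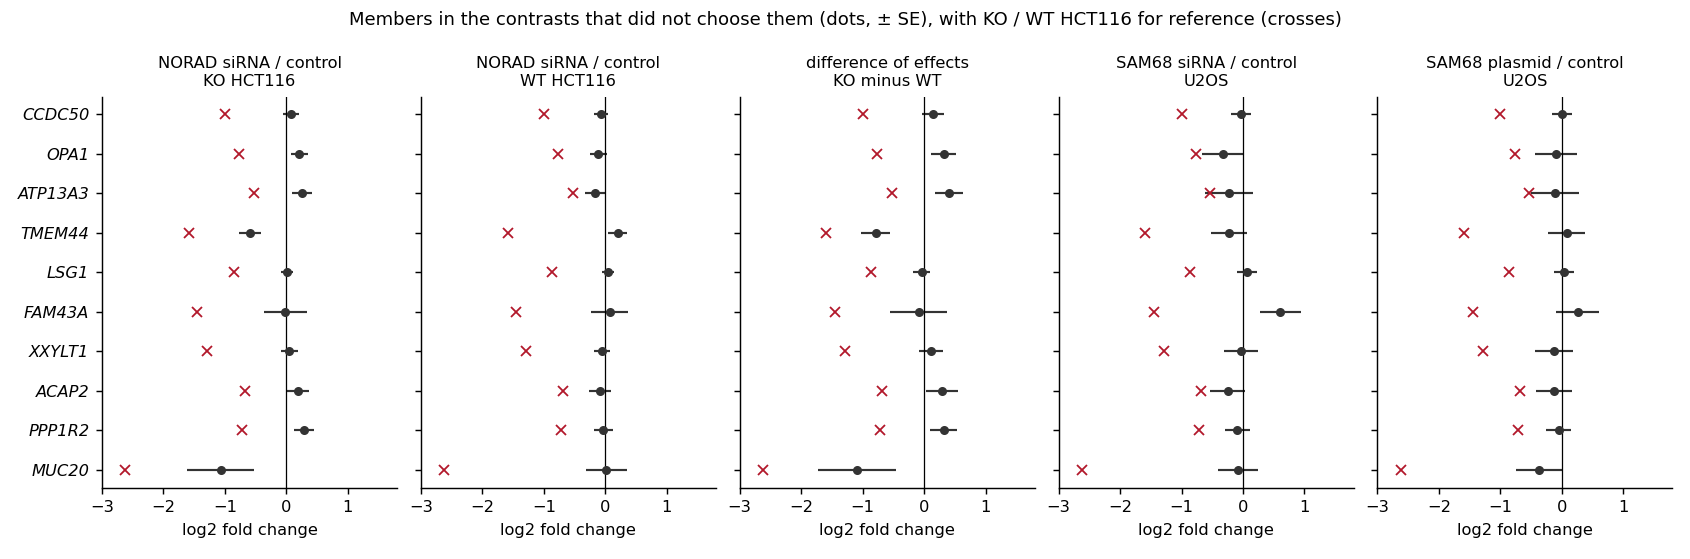
Log2 fold change (dots, ± SE) of each member in the 5 comparisons that did not choose the genes, with the KO over WT value in HCT116 as a red cross. In HCT116 the errors are widest for FAM43A and MUC20, and in U2OS the widest is that of ATP13A3 (± 0.39), whose SAM68 siRNA bar (at -0.23) spans its cross at -0.53.

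The abundance-weighted transcript length of a gene, estimated by RSEM, reflects which isoforms are used and played no part in the choice of the members. It could be read for the 6 members with more than 1 RefSeq transcript. OPA1, with 8 transcripts, averaged 6411 ± 9.88 bases in KO and 6409 ± 4.17 bases in WT HCT116 (SD, n = 4 each; two-sided exact permutation p = 0.771). CCDC50, with 2 transcripts, averaged 8642 ± 28.1 bases in KO and 8607 ± 27.7 bases in WT (exact permutation p = 0.171, adjusted 0.686 over the 6). XXYLT1, also with 2, averaged 2395 ± 70.2 bases in KO and 2462 ± 77.9 bases in WT (exact permutation p = 0.257). PPP1R2 (5 transcripts) differed by -0.62 bases, TMEM44 (4) by 2.51 and MUC20 (4) by -26.9, with ranges that overlapped between genotypes in all 6. The MUC20 lengths in KO cells rest on 3 to 11 expected counts a library and had an SD of 256 bases. MUC20 was not in the limma fit below, which asked for a mean of at least 50 expected counts. No member passed after adjustment, but 4 against 4 libraries cannot give an exact permutation p below 0.0286. Adjusted over the 6, a single member at that floor could not fall below 0.05. This test could therefore not call 1 member by itself. A fit of the same measure by limma over 7131 genes with several transcripts called 0% of them, with 726 at an unadjusted p below 0.05. Weighted length registers only isoforms that differ in length, so equal-length exchanges were not measured.

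Genes that work with the members were read from the same KO and WT fit, over a list of 57 partners of which 52 were tested. EdgeR called 5 higher and 2 lower, where it called 17.6% of all tested genes, and the median log2 of the list was 0.02, against -0.01 for all genes. Under NORAD siRNA alone it called 18.1% of all genes, and under control siRNA alone 0.312%. Over both siRNAs, 19 of the 52 partners and 4969 of 13764 tested genes had an unadjusted edgeR p below 0.05. DESeq2 called 9 partners and 2651 genes. Around OPA1, 15 genes of mitochondrial fusion and fission were tested, with 2 called higher and 1 lower by edgeR and 3 called by DESeq2. The outer membrane fusion GTPase MFN1 rose, with 78.1 ± 9.28 CPM in KO and 56.4 ± 5.75 CPM in WT cells (log2 0.47 ± 0.11, edgeR adjusted p = 0.0219). MFN1 also lies on chromosome 3, before the members in map order, where the running median of 11 tested genes around it was 0.219. OMA1, the protease that cleaves OPA1, rose too, with 29.2 ± 3.68 CPM in KO and 21.2 ± 1.32 CPM in WT cells (0.46 ± 0.10, edgeR adjusted p = 0.0177). MIEF2, a receptor for the fission GTPase, fell, with 6.80 ± 0.233 CPM in KO and 8.88 ± 0.461 CPM in WT cells (-0.39 ± 0.11, edgeR adjusted p = 0.039); it was named after its values were seen.

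In ribosome maturation edgeR called 1 of 6 genes and DESeq2 3, with 3 at an unadjusted p below 0.05. NMD3, the export adaptor that LSG1 releases, rose to 181 ± 27.2 CPM in KO against 144 ± 4.55 CPM in WT cells (edgeR adjusted p = 0.0267). NMD3 too lies on chromosome 3 before the members. Its log2 was 0.316, and the running median of 11 tested genes around it was 0.284. In the protein phosphatase 1 group 1 of 9 genes passed in edgeR and 1 in DESeq2, while 4 had an unadjusted p below 0.05. PPP1CB, a catalytic subunit, rose to 181 ± 37.6 CPM in KO against 137 ± 10.0 CPM in WT cells (edgeR adjusted p = 0.0264). GXYLT1, which adds the inner xylose that XXYLT1 extends, was the 1 of 6 that edgeR called in its group (1 also by DESeq2) and rose to 28.7 ± 5.41 CPM in KO against 20.2 ± 2.26 CPM in WT cells (edgeR adjusted p = 0.0332). ATP13A1, a relative of ATP13A3 in the endoplasmic reticulum, was the 1 of 2 tested that edgeR called (1 also by DESeq2) and fell to 58.6 ± 8.63 CPM in KO against 72.7 ± 6.45 CPM in WT cells (edgeR adjusted p = 0.0299). EdgeR and DESeq2 called 0 of 7 genes of ARF6 traffic, 0 of 5 of EGF receptor and NF-kB signalling and 0 of 2 around MET, with 3, 1 and 0 at an unadjusted p below 0.05; the 1 listed relative of FAM43A was not tested. These calls depended on single libraries: leaving out any 1 of the 8 HCT116 libraries moved at least 1 of the 2 counts by over 1.5 times, to between 0 and 9 higher and 0 and 4 lower. Without WT NORAD siRNA replicate 1, KO control siRNA replicate 2 or KO NORAD siRNA replicate 1 there were 0 calls in either direction, and the median of the 10 members in those 3 fits was -0.97 to -0.92.

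The genes whose pattern over the 8 HCT116 libraries was most like the mean standardized profile of the members were BTBD1 (Pearson r 0.997), KHDRBS1 itself (0.997), THEM4 (0.994), OR51B2 (0.993) and ASRGL1 (0.992), out of 13754. The 10 members, all on chromosome 3, were left out of this ranking. Of the 20 most alike, 19 have a chromosome in the RefSeq table, none of them chromosome 3, and 1 could not be placed. The likeness is mainly the step between genotypes: BTBD1 was at 41.8 ± 5.21 CPM in KO and 143 ± 9.09 CPM in WT cells, and THEM4 at 18.5 ± 0.925 CPM in KO and 34.8 ± 1.23 CPM in WT cells. TNK2, the neighbour past MUC20, ranked 228 with r 0.893.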

How the data were processed

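Each library has 1 table of gene-level estimates with RefSeq transcript names, per the file headers. The submitters' processing notes list STAR, RSEM and hg19, without version numbers. Expected counts, deposited by the authors without normalization, were rounded for the tests. TPM, deposited by the authors, served for levels between genes, and the deposited length and effective length columns, in bases, for isoform use.

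Names and gene order came from a RefSeq table (GRCh38.p14): 25321 of 27434 rows matched by gene number. HCT116 and U2OS had separate fits, each over 4 groups: filterByExpr, TMM, edgeR's quasi-likelihood test (edgeR 4.0.16, limma 3.58.1, R 4.3.3), Benjamini-Hochberg over 13764 genes in HCT116 and 15658 in U2OS, threshold 0.05. CPM are TMM-scaled per cell line. The biological coefficient of variation was 11.3% in HCT116 and 20% in U2OS. DESeq2 1.42.0, RLE scaling, no filter, a replicate block and leaving out each library were the alternatives. The edgeR fits were tested on simulated data.

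The members and lists were chosen with earlier results of these data known. Named genes were all 10 members, KHDRBS1 and NORAD, the non-members within the span and 3 tested genes on either side, the 5 genes most alike, and up to 6 called partners by smallest p; MIEF2 and TFRC were named after their values were seen. Pattern likeness used log2(CPM + 0.5).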

Additional observations from a re-analysis of the deposited data

Results flagged for a closer look

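TMEM44 moved in opposite directions under NORAD siRNA in the 2 genotypes of HCT116, lower in both KO libraries and higher in both WT libraries than their controls. The difference of the effects, KO minus WT, was -0.79 ± 0.24 on the log2 scale, with an edgeR adjusted p of 0.642 over all tested genes, so it did not pass the test. Over the alternatives the adjusted p was 0.166 to 0.999 and the difference lay between -0.92 (without KO control siRNA replicate 1) and -0.65 (without KO control siRNA replicate 2). It rests on 54 and 82 expected counts under NORAD siRNA and 64 and 101 under control siRNA in KO cells, and on 312 and 224 against 223 and 170 in WT cells.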

How the results depend on the processing

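Under DESeq2, edgeR with RLE size factors, no filter on low counts, the replicate block and each library left out, no member was called in the NORAD siRNA, SAM68 siRNA or SAM68 plasmid comparisons. Without each library in turn, the members' median log2 was -0.97 to -0.91 for KO over WT, 0.03 to 0.10 for NORAD siRNA in KO, -0.06 to 0.01 in WT, 0.05 to 0.14 for their difference, -0.09 to 0.06 for SAM68 siRNA (0.06 without SAM68 siRNA replicate 2) and -0.14 to 0.03 for the plasmid. The lowest window was -1.29 with 7 genes and -0.72 with 21. Partners called higher and lower were 8 and 1 with DESeq2, 8 and 4 with no filter, 15 and 8 with the replicate block, 8 and 1 with NORAD siRNA libraries alone, 0 and 0 with control siRNA libraries alone, and 0 to 9 and 0 to 4 without each library; the single-siRNA fits were chosen after seeing the data, and the cause was not tested.

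Of all genes, KO against WT gave 2424 calls, 3772 with no filter, 5247 with the replicate block, 43 with control siRNA alone and 201 to 3144 without each library: 743 without WT control siRNA replicate 1, 201 and 726 without WT NORAD siRNA replicates 1 and 2, 564 without KO control siRNA replicate 2, and 308 and 1324 without KO NORAD siRNA replicates 1 and 2. NORAD siRNA in KO gave 1 call, and 8 with DESeq2, 61 with no filter, 7 with the block and 0 to 4 without each library; in WT 1, and 5, 33, 3 and 1 to 2; their difference 0, and 2, 30, 2 and 0 to 1. SAM68 siRNA gave 1, and 7, 27, 0 and 0 to 5, and the plasmid 1, and 4, 15, 0 and 0 to 4. Replicate numbers pair nothing in the labels: same-numbered libraries correlated at -0.0443 to 0.378, and the replicate block left the members' KO over WT median at -0.93 and changed no member's call in the other comparisons. Counts limit MUC20 and FAM43A most.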
